A study of Mus musculus with 18 samples.

Results

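The comparison described here set cultures collected 3 h after their axons were cut against uninjured control cultures. The series holds 18 libraries, and the 6 used for the comparison were chosen by their titles, 3 at 3 h post injury (HPI) and 3 of the control. Each was an eDRG spot culture, in which dissociated dorsal root ganglia (DRG) of e13.5 CD-1 mouse embryos are plated as a small drop and grow a halo of axons. All cultures, controls included, were treated with 5-fluorodeoxyuridine (FDU), which kills dividing cells. Control cultures were collected at DIV7 with no cut, and the injured ones were cut with a blade. The labels and methods do not say whether replicates came from separate litters or cultures, so the p-values below measure the spread between these samples. Replicates 1 to 3 were numbered alike in both groups, and the number was taken as the batch. Of 47643 genes with counts listed, 13771 passed a filter of more than 1 CPM (counts scaled to a library total of 1e+06) in at least 3 of the 18 libraries and were tested.

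Sensory neurons of the DRG regrow their peripheral axon after a cut, and the cell body learns of the injury by calcium and membrane signals within minutes and by kinases carried along the axon over hours. The first genes to respond in many cells are the immediate early genes, whose transcription needs no new protein. They include Fos, Fosb, Fosl2 and the Jun genes, whose products pair to form AP-1, a transcription factor that binds DNA and switches on later genes. In neurons, immediate early genes also answer to firing and to growth factors, and Arc, which acts in endocytosis at synapses, is among the best known. Transcription factors such as Atf3, Jun and Sox11 are also known from the response to axon injury.

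The results at 3 HPI turned on Fos and Fosb, so the 250 bases before their RefSeq start sites are shown, on GRCm38.p6 and in the direction of transcription. The RefSeq start of Fosb lies a few bases inside the gene as GENCODE annotates it, and distances below are counted from the RefSeq starts. The table holds no entry for Arc. Capitals mark TGACG, the core of the cAMP response element through which CREB acts, and TATAAA, the TATA box.
Fos, chr12:85473640-85473889, plus strand: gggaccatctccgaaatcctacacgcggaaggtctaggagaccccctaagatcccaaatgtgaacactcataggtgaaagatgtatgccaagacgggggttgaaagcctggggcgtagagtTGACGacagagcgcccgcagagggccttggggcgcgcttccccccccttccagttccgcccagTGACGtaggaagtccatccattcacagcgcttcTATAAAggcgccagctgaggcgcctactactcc
Fosb, chr7:19310046-19310295, minus strand: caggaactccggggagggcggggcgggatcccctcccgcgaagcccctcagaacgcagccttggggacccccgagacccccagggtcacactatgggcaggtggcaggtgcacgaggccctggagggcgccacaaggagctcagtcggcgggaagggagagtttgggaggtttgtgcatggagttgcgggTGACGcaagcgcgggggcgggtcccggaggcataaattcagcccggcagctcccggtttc
TGACG was found at 62 to 66 and at 125 to 129 bases before the start of Fos, and at 56 to 60 bases before that of Fosb. On either strand it lies in 17.8% of 32851 promoters of the same length. TATAAA was found at 28 to 33 bases before the start of Fos and is held by 12.4% of promoters. GGGCGG, the GC box, was found in both promoters and is held by 32.7%. Neither window held the full element TGACGTCA, which contains TGACG on each strand and is present in 1.55% of promoters, nor the AP-1 site TGANTCA, present in 6.75%. These matches describe letters in a window and say nothing of binding.

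Counts assigned to genes came to 20428645, 13756966 and 20019792 in the controls and to 18686497, 23082327 and 18154570 at 3 HPI. The 7 markers of sensory neurons, among them Tubb3 and Avil, had a summed level between 8804 and 9176 CPM in control and between 9161 and 9612 CPM at 3 HPI. None of these passed the test. The 10 markers of satellite glia and Schwann cells summed to between 75.8 and 127 CPM in control and between 91.5 and 136 CPM at 3 HPI, nearly all of it S100b, while Mag stayed at or under 3 counts per library. The 5 myeloid markers summed to between 3.42 and 4.70 CPM in control and between 3.48 and 3.86 CPM at 3 HPI, and Ptprc and Itgam had at most 3 counts in each library. No gene of the marker lists for glia, myeloid cells, fibroblasts or dividing cells passed the test at 3 HPI, and no endothelial marker passed the filter. In bulk RNA, fewer cells of a type and less RNA per cell cannot be told apart.

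The change at 3 HPI was small and uneven in direction. With an adjusted p under 0.05 and more than a 2-fold change, 3 genes were higher (0.0218% of those tested) and 1 was lower (0.00726%). Without the fold threshold, 6 genes rose (0.0436%) and 20 fell (0.145%), and 20 of these 26 changed by less than 1.5-fold. At an unadjusted p under 0.05, 859 genes (6.24%) were higher and 1140 (8.28%) lower. All 26 moved the same way within each of the 3 batches, and 25 were protein-coding. The libraries at 3 HPI lay wholly above the controls for 5 of the 6 genes that rose, against 5.71% of all tested genes, and wholly below for 8 of the 20 that fell, against 2.36%. The number depended on the libraries used: leaving out injured replicate 1, 2 or 3 gave 148, 1 and 6 genes, and leaving out the control of the same number gave 64, 2 and 2. Without the batch term 1 gene passed, and the DESeq2 Wald test gave 151, of which 122 were lower.

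**Figure D1:**
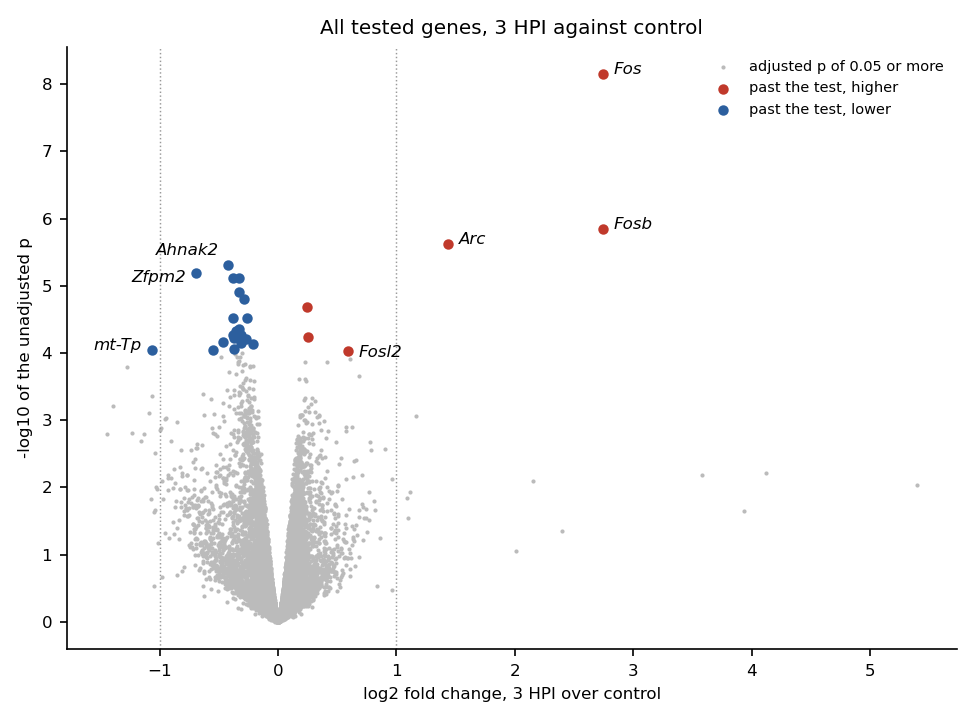
Each point is 1 of 13771 tested genes, with its log2 fold change at 3 HPI over control on the x axis and -log10 of its unadjusted p on the y axis; dotted lines mark a 2-fold change. The 6 genes that rose (red) include Fos, Fosb and Arc far to the right, and the 20 that fell (blue) lie close together left of 0, most of them between -0.2 and -0.7.

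Fos (ENSMUSG00000021250.13, chromosome 12 of GRCm38, 85473890 to 85477273, plus strand) showed the clearest response. Its level was 1.03, 1.74 and 0.500 CPM in control replicates 1, 2 and 3, from 21, 24 and 10 counts, and 5.51, 6.11 and 9.31 CPM at 3 HPI, from 103, 141 and 169 counts. The lowest injured culture was thus above the highest control. The log2 fold change was 2.75 ± 0.30 (SE) with an adjusted p of 9.84e-05 (quasi-likelihood test of edgeR, adjusted after Benjamini and Hochberg, as for every adjusted p below). Fos was the gene that still passed without the batch term (adjusted p = 0.0175) and in each fit that left out a library. Control replicate 3 had the lowest level, and without it the log2 fold change was 2.19 ± 0.28.

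Fosb (ENSMUSG00000003545.3, chromosome 7, 19302696 to 19310051, minus strand), a close relative of Fos, started from almost nothing. The 4, 5 and 7 counts in the controls gave 0.196, 0.363 and 0.350 CPM, and the 27, 34 and 54 counts at 3 HPI gave 1.44, 1.47 and 2.97 CPM. Replicate 3 was again the highest of the injured cultures, and the groups did not overlap. The log2 fold change was 2.75 ± 0.41 (SE), adjusted p = 0.00974. It no longer passed without control replicate 3 (adjusted p = 0.193) or 3 HPI replicate 2 (0.0561).

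Fosl2, which encodes the AP-1 subunit Fra-2, was expressed in the uncut cultures at 8.03, 8.50 and 8.99 CPM and reached 11, 12.4 and 15.5 CPM. The rise was modest, with a log2 fold change of 0.59 ± 0.12 (SE) and an adjusted p of 0.0494, but it was present in each batch. Of the 9 AP-1 genes listed, 7 were tested, and these 3 passed. Of all tested genes, 0.0436% were higher and 0.145% lower past the same adjusted p. At an unadjusted p under 0.05, 4 of the 7 (57.1%) were higher and 0 lower, against 6.24% and 8.28% of all tested genes. Junb, which partners Fos, had 1.71, 1.6 and 2.35 CPM in control and 3.32, 2.47 and 3.75 CPM at 3 HPI, which did not overlap but did not pass (log2 fold change 0.78, adjusted p = 0.113). Jun itself, the AP-1 gene most tied to axon injury, had 47.1, 30.1 and 39.8 CPM in control and 46.2, 23.5 and 36.9 CPM after injury, which overlapped. The difference of -0.17 ± 0.10 (log2, adjusted p = 0.437) did not pass. The median over the 7 was 0.59, against -8.48e-05 over all genes tested.

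Arc (ENSMUSG00000022602.14) also passed both thresholds. It had 1.13, 0.800 and 0.999 CPM in control and 2.14, 2.77 and 3.08 CPM at 3 HPI, with no overlap, and a log2 fold change of 1.43 ± 0.22 (SE, adjusted p = 0.0111). The adjusted p rose to 0.101 and 0.193 when control replicate 2 or 3 was dropped, and to 0.149 when injured replicate 2 was. Arc was one of 23 tested genes among 29 listed as other immediate early genes. In this list 11 (47.8%) were higher and 0 lower at an unadjusted p under 0.05, against 6.24% and 8.28% of all tested genes. The median log2 fold change of the 23 was 0.12. Trib1, a pseudokinase induced by growth factors, had 3.52, 2.47 and 2.4 CPM in control and 4.07, 4.46 and 4.41 CPM after injury (log2 fold change 0.63, adjusted p = 0.102). Ier2 had 3.82, 4.43 and 5.04 CPM against 6.05, 5.76 and 9.20 CPM (0.64, adjusted p = 0.141). Of the Egr and Nr4a factors only Egr1 and Nr4a2 were expressed enough to test among 8 listed. Egr1, a zinc finger factor induced by the same kinases as Fos, had 2.55, 2.25 and 2.4 CPM in control and 4.01, 2.69 and 4.08 CPM at 3 HPI (0.59, adjusted p = 0.259).

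**Figure D2:**
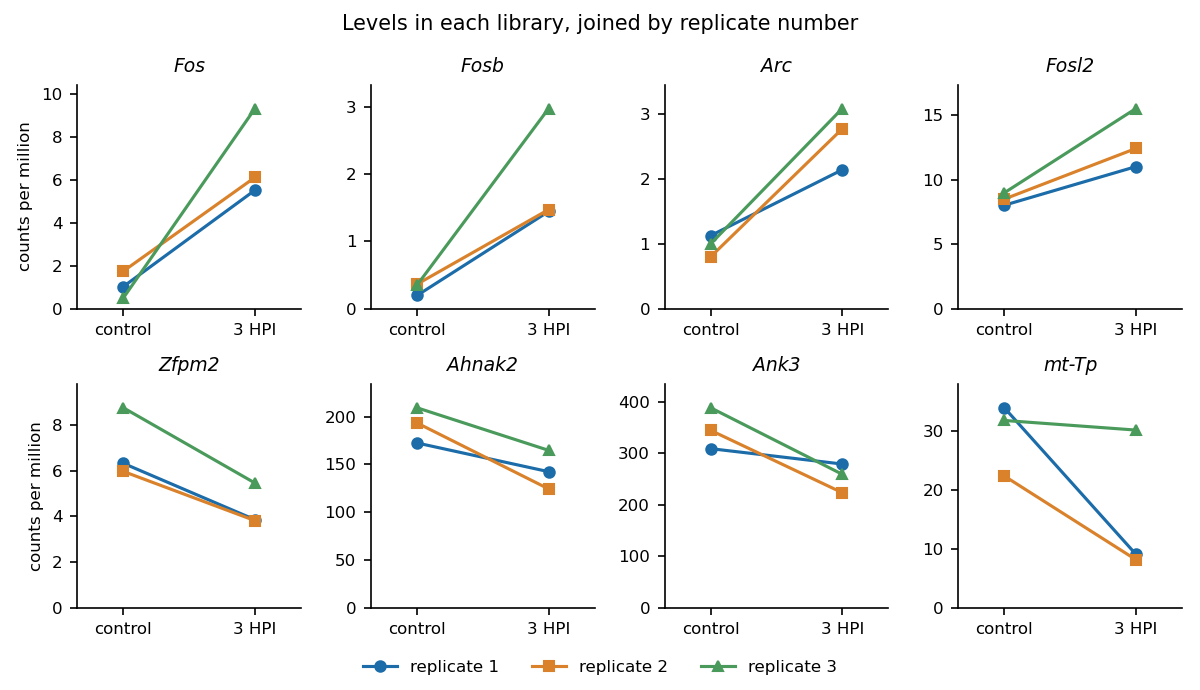
The level of 8 genes in CPM (y axis, from 0) is shown in control and at 3 HPI (x axis), with each line joining libraries of the same replicate number. Fos, Fosb, Arc and Fosl2 were higher in each injured culture, Zfpm2, Ahnak2 and Ank3 lower, and mt-Tp was lower in replicates 1 and 2 and nearly level in replicate 3, at 31.8 and 30.2 CPM.

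No gene passed among the 16 tested that ERK and other MAP kinases induce to restrain themselves. At an unadjusted p under 0.05, 6 were higher and 2 lower, or 37.5% and 12.5%, against 6.24% and 8.28% of all tested genes. Dusp6, a phosphatase that switches off ERK, had 41.0, 35.5 and 18.7 CPM in control and 48.6, 59.1 and 42.9 CPM at 3 HPI (log2 fold change 0.68 ± 0.15, adjusted p = 0.0652). Its injured cultures lay above all controls. Dusp8, which acts on JNK and p38, had 64.4, 75.2 and 94.1 CPM in control and 64.9, 61.3 and 66.1 CPM (-0.28 ± 0.06, adjusted p = 0.0675). The kinases of the DLK-JNK pathway, which carry the injury signal back along the axon, showed no gene at an unadjusted p under 0.05 among 10 tested, and Map3k12, which encodes DLK, had a log2 fold change of -0.06 ± 0.06.

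Beside the immediate early genes, only Pmvk and Cmpk1 rose. Pmvk, the phosphomevalonate kinase of cholesterol synthesis, had 123, 126 and 111 CPM in control and 147, 152 and 132 CPM at 3 HPI. The groups did not overlap, and the log2 fold change was 0.25 ± 0.05 (SE, adjusted p = 0.0442). Of 23 genes of cholesterol synthesis, 9 (39.1%) were higher and 0 lower at an unadjusted p under 0.05, against 6.24% and 8.28% of all tested genes. The median log2 fold change of the 23 was 0.11, and Pmvk was the one that passed. Other genes of the pathway, Idi1 and Acat2, had log2 fold changes of 0.23 and 0.17, with adjusted p of 0.173 and 0.113. Cmpk1, a kinase of pyrimidine nucleotides, had 174, 159 and 131 CPM in control and 201, 199 and 156 CPM, which overlapped between batches but rose within each (0.25 ± 0.05, adjusted p = 0.0281).

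The genes that fell changed little, and they are ordered here by what each is known to do, with no test of such classes. Zfpm2, a cofactor of GATA factors, fell furthest among protein-coding genes, from 6.31, 5.96 and 8.74 CPM in control to 3.85, 3.81 and 5.45 CPM at 3 HPI, with no overlap (log2 fold change -0.69 ± 0.12, adjusted p = 0.0151). Ahnak2, a giant scaffold protein, had 172, 193 and 209 CPM in control and 142, 124 and 165 CPM at 3 HPI (-0.43 ± 0.07, adjusted p = 0.0151). Again the injured cultures lay below every control. Ank3, whose product ankyrin-G anchors sodium channels at the axon initial segment, had 309, 345 and 388 CPM in control and 279, 224 and 259 CPM at 3 HPI (-0.46 ± 0.09, adjusted p = 0.0468). Nav1, a neuronal protein that binds microtubule ends, fell by 0.37 on the log2 scale, from 132, 157 and 181 CPM to 121, 113 and 129 CPM.

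Several encode proteins of the neuronal surface. Tenm2, a teneurin that binds latrophilins across synapses, had 107, 142 and 161 CPM in control and 94.6, 105 and 127 CPM at 3 HPI (-0.33 ± 0.06, adjusted p = 0.0151). Celsr2, a large cadherin of planar polarity, had a log2 fold change of -0.38 ± 0.08. The neuronal membrane protein Lrrn1 had -0.28 ± 0.05, and Shisa7, an auxiliary protein of neurotransmitter receptors, -0.33 ± 0.06. Of 62 protocadherin genes tested among 69, 2 fell and 54 had a log2 fold change below 0, against 6891 of 13771 over all tested genes. At an unadjusted p under 0.05, 12 (19.4%) were lower and 0 higher, against 8.28% and 6.24% of all tested genes. The protocadherin median was -0.16. Pcdh1 fell from 252, 266 and 340 CPM to 238, 197 and 248 CPM (-0.33 ± 0.06, adjusted p = 0.0214). Pcdhga2 had 7.15, 9.09 and 8.74 CPM in control and 5.51, 5.63 and 5.89 CPM (-0.55 ± 0.11, adjusted p = 0.0494), but it shares its closing exons with the other genes of its cluster, so its count is uncertain.

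Others act in the nucleus or on RNA. Crebbp, the acetyltransferase that CREB recruits, had 62.4, 67.4 and 80.5 CPM in control and 55.7, 50.8 and 64.2 CPM at 3 HPI (log2 fold change -0.31 ± 0.06, adjusted p = 0.0468). The ranges overlapped because replicate 3 was high in both groups, while each batch fell. Zmynd8, a reader of histone marks, had -0.26 ± 0.05 (adjusted p = 0.0352). Among RNA-binding proteins, Atxn2 had -0.36 ± 0.07, the core spliceosome protein Prpf8 -0.27 ± 0.05 and the splicing factor Sfpq -0.21 ± 0.04. Sec24b, of the vesicle coat that leaves the endoplasmic reticulum, had -0.38 ± 0.07, and the membrane protein Tmem131 -0.37 ± 0.07.

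Ion channel genes, chosen by symbol and including accessory subunits, mostly lay a little below 0. Of 161 tested among 248, 111 had a log2 fold change below 0, 31 (19.3%) were lower and 5 (3.11%) higher at an unadjusted p under 0.05, and the median was -0.07. Over all tested genes, 6891 of 13771 were below 0, and 8.28% and 6.24% were lower and higher. Cacna1c, the pore of L-type calcium channels, was the one that fell, from 152, 171 and 212 CPM to 140, 132 and 159 CPM (-0.31 ± 0.06, adjusted p = 0.0442). Cacna1a, of P/Q-type channels, had -0.35 ± 0.07 (adjusted p = 0.0515). The nociceptor sodium channels Scn10a and Scn9a had -0.24 and -0.21 (adjusted p = 0.0908 and 0.107).

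The genes that fell were long. Over the 19 protein-coding genes among them, the longest annotated transcript had a median of 6188 bases, and 89.5% reached 4 kb, against a median of 3555 bases and 41.5% over 12398 tested protein-coding genes. The 6 that rose had a median of 3112.5 bases. The same held across all genes: the median log2 fold change was 0.07 over 433 genes with transcripts under 1 kb, 0.02 over 5007 genes of 2 to 4 kb and -0.11 over 832 genes over 8 kb, of which 31.5% were lower at an unadjusted p under 0.05 and 0.721% higher. Spearman's rho between transcript length and log2 fold change was -0.311 across genes, a description only, since genes share libraries and are not independent. Within batches it was -0.0777, -0.296 and -0.250, so replicate 1 showed little of it. When each library's dependence on transcript length and GC content was removed by smooth offsets, a setting added after the pattern was seen, 7 genes passed. They were Fos, Fosb, Arc and Fosl2 among those that rose, and Zfpm2, Ahnak2 and mt-Tp among those that fell. The median of transcripts over 8 kb was then -0.01, that of ion channels -0.04 and that of protocadherins -0.13. The other 19 of the 26 genes kept their sign, and their log2 fold changes were between 62.1% and 104.2% of those without the offsets, with a median of 84.7%. Lrrn1 had -0.29 ± 0.06 with the offsets (adjusted p = 0.0818), and Cacna1c, which changed most, -0.19 ± 0.05 (adjusted p = 0.217).

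**Figure D3:**
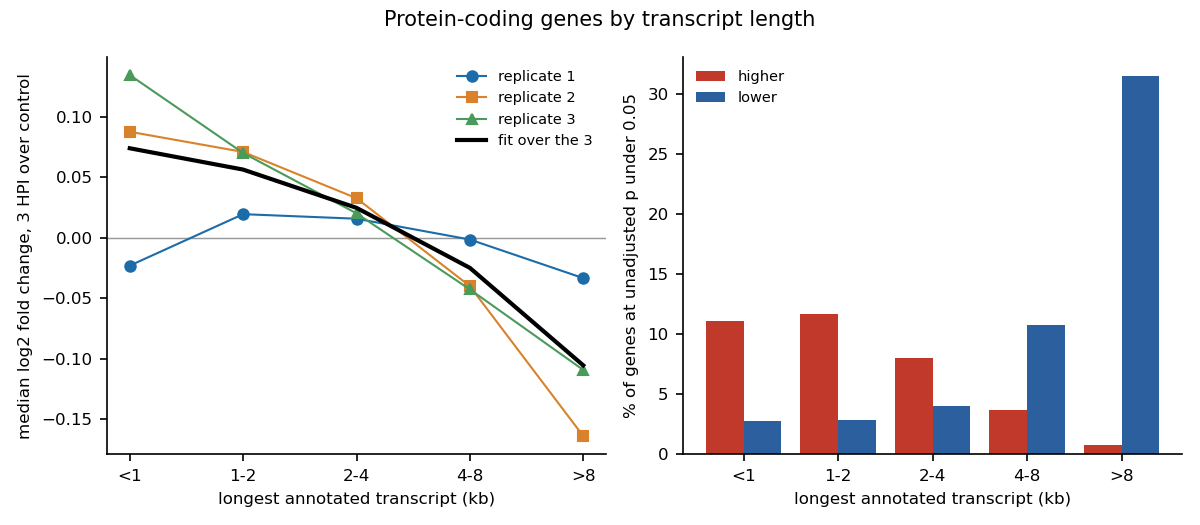
Left, the median log2 fold change at 3 HPI over control (y axis) of protein-coding genes in 5 classes of transcript length in kb (x axis), for each replicate number and for the fit over all 3; right, the percent of genes in each class at an unadjusted p under 0.05, higher in red and lower in blue. The fitted median fell from 0.07 under 1 kb to -0.11 over 8 kb, and the share of lower genes reached 31.5% in the longest class.

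No noncoding nuclear gene passed the test, but genes of some noncoding types, picked out after their values were seen, mostly had log2 fold changes below 0. Genes of the type TEC, transcripts that the annotation lists as still to be experimentally tested, had a median log2 fold change of -0.37 over 266 tested, and 226 were below 0. At an unadjusted p under 0.05, 65 of them (24.4%) were lower and 1 higher, against 8.28% and 6.24% of all tested genes. Genes annotated as sense intronic had a median of -0.35 over 34, with 10 lower and 0 higher. Both types had low median levels in control, near the filter of more than 1 CPM in at least 3 of the 18 libraries. A gene near that limit can pass on the 3 control libraries alone, which favours genes higher in control. Whether this selection adds to the share of lower genes was not tested, and the shares of all tested genes were not matched for level. The medians of TEC genes within batches were -0.09, -0.37 and -0.45, and with the length and GC offsets the median over the 3 was -0.34. Summed over all TEC genes, the level was 506, 536 and 810 CPM in control and 493, 437 and 597 CPM at 3 HPI. Each injured library was below the control of its own number, and replicate 3 was the highest in both groups. Of the TEC genes, 174 lie within a protein-coding gene on the same strand, and 173 of these had a tested host. Their median was -0.42, against -0.02 for the 107 hosts, and 152 lay below their host. D130004A15Rik (chromosome 5, 69168672 to 69170248), within Kctd8, had 1.32, 1.02 and 2.00 CPM in control and 0.696, 0.433 and 0.661 CPM at 3 HPI (log2 fold change -1.27 ± 0.28, adjusted p = 0.0522). It was thus above 1 CPM in every control library and in none at 3 HPI. Reads of such genes cannot be told apart from those of the host's unspliced RNA.

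The 1 gene called lower was mt-Tp, the gene of the mitochondrial tRNA for proline. The gene (ENSMUSG00000064372.1) lies on the minus strand of chromosome M from 15356 to 15422, next to the control region. Its annotated transcript of 67 bases is shown because it is shorter than a single read.
mt-Tp: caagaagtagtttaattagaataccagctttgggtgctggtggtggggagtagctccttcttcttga
The level was 34.0, 22.4 and 31.8 CPM in control and 9.10, 8.19 and 30.2 CPM at 3 HPI. Replicates 1 and 2 were low after injury and replicate 3 was not, so the groups overlapped. The log2 fold change was -1.07 ± 0.22 (SE, adjusted p = 0.0494). Dropping control replicate 1 or 2 gave -0.71 and -1.03, with an adjusted p of 0.0994 and 0.224. Dropping injured replicate 1 or 2 gave -0.87 and -0.92, with an adjusted p of 0.0821 and 0.265. Dropping replicate 3 made the value larger, at -1.45 without the control (adjusted p = 0.00151) and -1.49 without the injured library (0.0103). Each of the 21 other mitochondrial tRNA genes had at most 2 counts in every library, and 18 had none in all 6. Whether the counts of mt-Tp come from the tRNA itself or from longer RNA across its gene was not tested. No mitochondrial protein or rRNA gene was at an unadjusted p under 0.05 among 12 tested.

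The transcription factors best known from axon injury had not passed the test by 3 HPI. Of 25 tested among 27 listed, 3 (12%) were higher and 0 lower at an unadjusted p under 0.05, against 6.24% and 8.28% of all tested genes. The median log2 fold change of the 25 was 0.07. Atf3, the standard marker of an injured sensory neuron, had 7.34, 14 and 19.3 CPM in control and 11.6, 13.6 and 20.7 CPM at 3 HPI (0.18 ± 0.24, adjusted p = 0.776). Sox11 had 109, 111 and 128 CPM against 113, 121 and 133 CPM (0.07 ± 0.07). Rest, a repressor of neuronal genes, had at most 1.05 CPM in any of the 6 libraries and a log2 fold change of -0.33 ± 0.34. Among 19 regeneration-associated genes tested, 2 (10.5%) were higher and 3 (15.8%) lower at an unadjusted p under 0.05, against 6.24% and 8.28% of all genes. Gap43, a growth cone protein, had a log2 fold change of 0.13 ± 0.06 (adjusted p = 0.302) and Gfra1, a receptor for GDNF family ligands, -0.52 ± 0.17 (adjusted p = 0.149).

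No gene passed on the lists of stress pathways. For the integrated stress response, 4 of 22 tested genes (18.2%) were higher and 0 lower at an unadjusted p under 0.05. Over all tested genes, 6.24% were higher and 8.28% lower at that p. Atf4, the main factor of the integrated stress response, had a log2 fold change of 0.04 ± 0.06, and Ddit3 0.21 ± 0.11. For p53 targets the numbers were 5 and 0 of 17, with Cdkn1a, a brake on the cell cycle, at 0.27 ± 0.11 (adjusted p = 0.275). For heat shock proteins they were 5 and 0 of 17, and for antioxidant genes under Nrf2 they were 3 and 0 of 11. The shares higher were 29.4% for p53 targets, 29.4% for heat shock proteins and 27.3% for antioxidant genes. Cytosolic ribosomal proteins had 62 of 81 tested genes above 0 and a median of 0.07. At an unadjusted p under 0.05, 11 of them (13.6%) were higher and 2 (2.47%) lower. Nuclear genes of the respiratory chain had 71 of 89 above 0, against 6880 of 13771 over all tested genes, and a median of 0.08. Both lists hold short transcripts, with median lengths of 1094 and 1129 bases, and with the length and GC offsets their medians were 0.03 and 0.04.

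No gene of sensory neuron identity passed. Of 19 tested, 6 (31.6%) were lower and 1 (5.26%) higher at an unadjusted p under 0.05, against 8.28% and 6.24% of all tested genes. The median log2 fold change of the 19 was -0.004. Ntrk3, the neurotrophin receptor of proprioceptors, had 18.8, 35.7 and 35.4 CPM in control and 19.4, 20.9 and 20.8 CPM at 3 HPI (-0.53 ± 0.15, adjusted p = 0.107). Calca, which encodes the peptide CGRP, differed far more between replicate numbers than between groups, with 489, 136 and 128 CPM in control and 523, 140 and 174 CPM at 3 HPI.

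**Figure D4:**
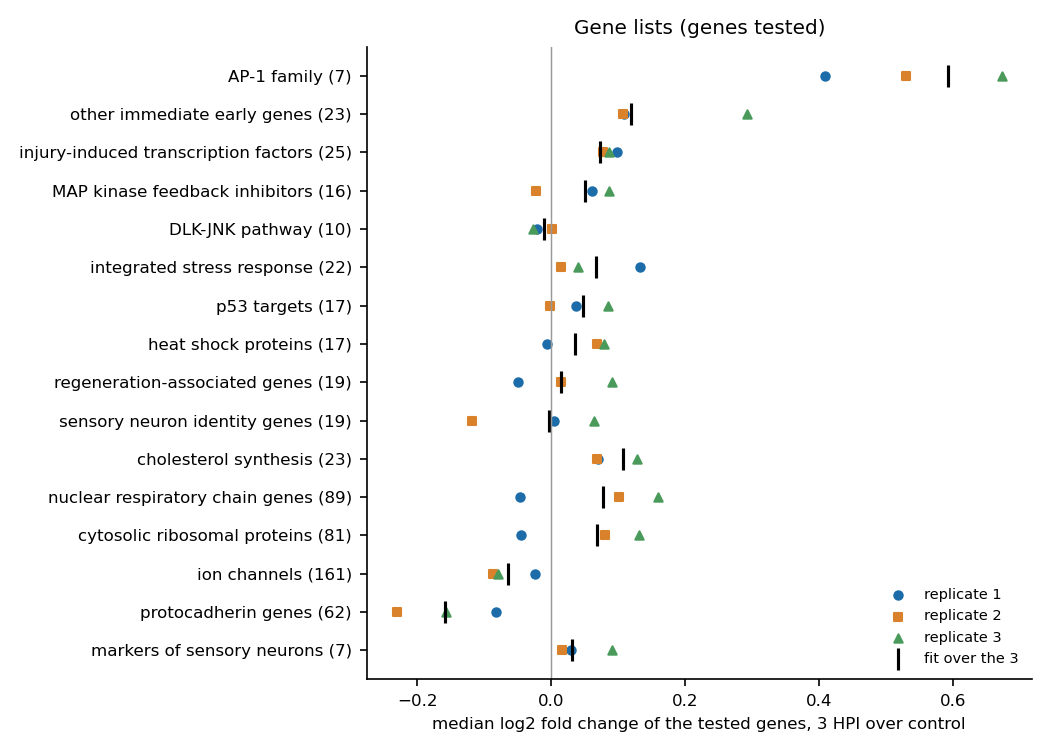
For 16 gene lists (y axis, with the number of genes tested), the median log2 fold change at 3 HPI over control (x axis) is shown within each replicate number and, as a bar, in the fit over all 3. The AP-1 family stands at 0.59, and the protocadherins at -0.16 are lowest.

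The largest fold changes of all, in size, belonged to genes that take up leftover ribosomal RNA, and they differed between libraries. The list's median log2 fold change was -0.43, 1.45 and 5.11 in batches 1, 2 and 3. Gm23935 had between 13.3 and 23.5 CPM in 5 of the 6 libraries and 2288 CPM in 3 HPI replicate 3, with a log2 fold change of 5.39 ± 1.88 (SE, adjusted p = 0.198). CT010467.1 had between 106 and 177 CPM in the same 5 and 8115 CPM in that library. The list of 9 such genes took 1.71% of the counts in 3 HPI replicate 3 and between 0.692% and 0.994% in the other 5 libraries. Lars2, a mitochondrial tRNA synthetase gene that overlaps such sequence, had 72.2, 26.6 and 26.1 CPM in control and 24.5, 226 and 1052 CPM at 3 HPI, so it was higher in replicates 2 and 3 and lower in replicate 1. None of these genes passed the test.

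Set against 1 HPI, the cultures at 3 HPI gave 0 genes (0%) past the adjusted p, with 1035 (7.52%) at an unadjusted p under 0.05. The smallest adjusted p was 0.0675, and the DESeq2 Wald test gave 11. Both comparisons use the libraries at 3 HPI and are not independent. The mean level of Fos was 6.06 ± 2.69 CPM (SD, n = 3) at 1 HPI and 6.98 ± 2.04 CPM at 3 HPI, a log2 difference of 0.23 ± 0.21 (SE). Fosb had 2.17 ± 1.47 and 1.96 ± 0.875 CPM, and Arc 2.35 ± 0.520 and 2.67 ± 0.481 CPM. For none of these 3 genes did the difference between 1 and 3 HPI pass the test.

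Against 8 HPI the picture differed, with 240 genes (1.74%) higher and 77 (0.559%) lower at 8 HPI than at 3 HPI. Fos did not pass the test, with a log2 difference of 0.04 ± 0.21 (SE). Fosl2 went on rising, from a mean of 13 to 23.9 CPM (0.90 ± 0.11, adjusted p = 2.59e-05). Jun was higher at 8 HPI by 1.19 ± 0.09 on the log2 scale (adjusted p = 1.3e-07), and Atf3 by 2.12 ± 0.21, from a mean of 15.3 to 63.8 CPM. Of the 25 tested injury transcription factors, 8 were higher and 0 lower at 8 HPI than at 3 HPI. None of the genes named above as lower at 3 HPI and past the test differed between 3 and 8 HPI at an adjusted p under 0.05.

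**Figure D5:**
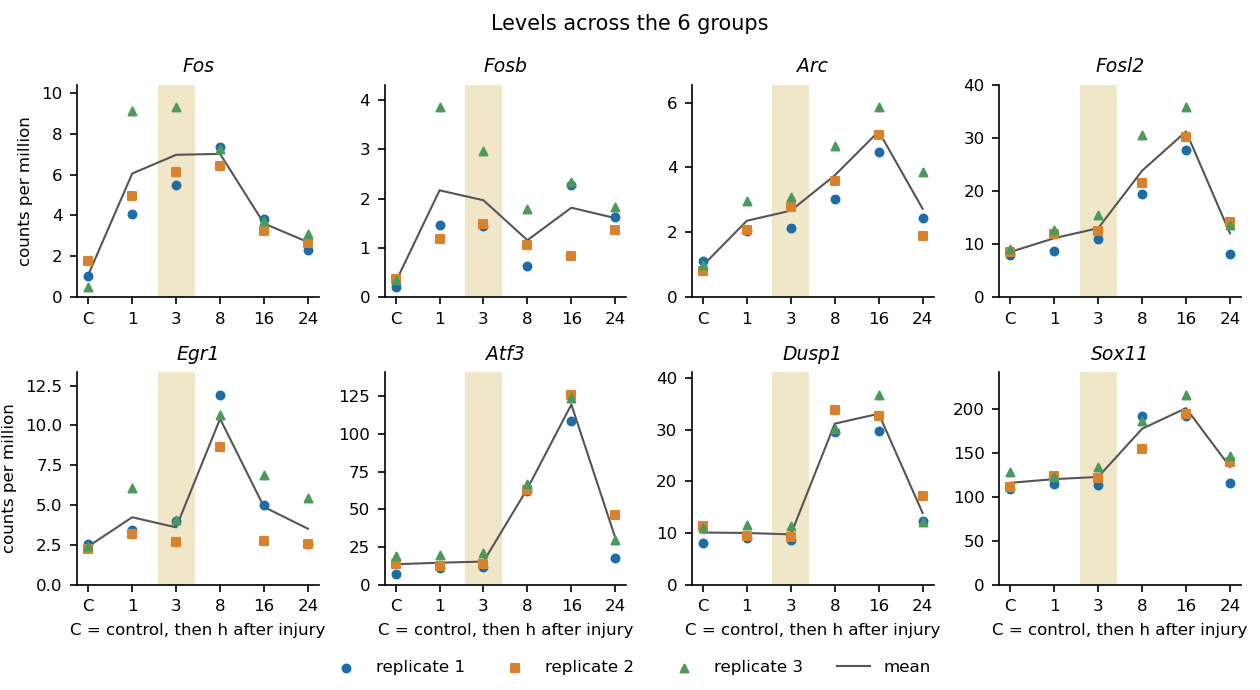
Levels in CPM (y axis, from 0) of 8 genes in control (C) and at each time after injury in h (x axis), with a point for each library by replicate number and a line through the group means; 3 HPI is shaded. Fos, Fosb and Arc were already above control at 1 HPI, whereas Atf3 and Dusp1 stayed near control at 3 HPI, with means of 15.3 and 9.73 CPM, and stood at 63.8 and 31.2 CPM at 8 HPI.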

How the data were processed

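RNA of eDRG spot cultures was sequenced after rRNA depletion and, per the labels, SMARTer cDNA synthesis, whereas the methods name another reverse transcription kit. The authors deposited raw counts of reads per gene for each library, without normalization. The methods name cutadapt, STAR, featureCounts and GENCODE vM20, and the submitters' processing notes name FastQC, STAR, HTSeq, DESeq2 and the build mm10. The strand setting of the counting is not given in the sources used here. Names, positions and transcript lengths came from GENCODE vM21 on GRCm38, which matched 47224 of 47643 identifiers, and 419 had no match. Entries for reads on no gene held between 27.0% and 31.2% of the counts in the 6 libraries and were left out.

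Counts were analysed with edgeR 4.0.16 in R 4.3.3, with limma 3.58.1 and DESeq2 1.42.0, and tables in Python 3.11.15. Libraries were scaled by TMM. A single quasi-likelihood model with terms for time point and batch was fitted to all 18 libraries, and tests were two-sided with Benjamini-Hochberg adjustment over 13771 genes. Samples with the same number deviated together from their group means, so the replicate number stayed in the model. The correlations were 0.630 to 0.680 over the 3 pairs of control and 3 HPI. Between numbers they were -0.449 to -0.170, which adds no separate support, since deviations within a group cancel out. CPM were taken over counts on genes, and values within a batch from log2 CPM with a prior count of 2. The method was also run on simulated data without a batch effect, which cannot test the batch term. Counts of 3 or fewer, which correspond to between 0.130 and 0.218 CPM here, were not read as expression, a limit that takes in counting error alone, as no molecular identifiers were used. Dependence on length and GC content was also removed by splines on the longest transcript.

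Named are every gene past the adjusted p, the list members among them and, for lists with none, the first 3 tested. Others were chosen after their values were seen, and some items that the rule names are not reported here. The comparison, its lists and members were chosen with earlier results of these data known.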

Additional observations from a re-analysis of the deposited data

Results flagged for a closer look

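For 12 of the named genes, the change between 3 and 8 HPI itself passed the test (quasi-likelihood test of edgeR, adjusted after Benjamini and Hochberg), all of them higher at 8 HPI. The log2 differences were 1.70 for Dusp1, 2.12 for Atf3, 0.98 for Hmox1, 0.83 for Per1, 0.91 for Bbc3, 0.83 for Gadd45a, 0.90 for Fosl2, 1.54 for Egr1, 0.85 for Ddit3, 0.56 for Sox11, 0.41 for Mdm2 and 0.38 for H3f3b. Of these, Fosl2 had already risen at 3 HPI, and the other 11 had an adjusted p of at least 0.259 against control. The p53 targets Bbc3 and Mdm2, which encode an inducer of apoptosis and the ligase that degrades p53, were at 0.06 and -0.02 at 3 HPI. Hmox1, which breaks down haem, was at 0.09 and the clock gene Per1 at 0.09. With groups of 3, single libraries were not tested for standing apart.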

How the results depend on the processing

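Of the 26 genes past the adjusted p at 3 HPI, all kept their direction in every alternative that tested them, and 3 were removed by the filter of more than 1 CPM in all 18 libraries. Their number moved far more than their direction. It was 151 with the DESeq2 Wald test (77 when its independent filtering, which gave Fos, Fosb and Arc no adjusted p, was switched off), 43 with a filter of at least 10 counts, and 7 with length and GC offsets. The offsets and the DESeq2 fit without filtering were chosen after seeing the data. Fitting the 2 compared groups alone gave 30 genes, which held 16 of the 26 and 3 of the 4 called. In that fit mt-Tp did not pass (edgeR, adjusted p = 0.0908). Without the replicate block 1 gene passed, Fos, and it was the 1 called. The DESeq2 Wald test and the filter on all 18 libraries each called 1 gene, which was mt-Tp, lower, and not Fos. Fos, Fosb and Arc had no adjusted p in the first and were removed by the filter in the second. Leaving out a library gave between 1 and 8 called and between 1 and 148 past the adjusted p. Leaving out control replicate 2 or 3 or injured replicate 2 left at most 2 genes, so most single calls rest on these libraries, and the cause was not tested.

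Against 1 HPI, 11 genes passed with DESeq2 (10 without independent filtering), 5 with the filter of at least 10 counts and 16 with the 2 groups fitted alone, against 0. Between 3 and 8 HPI, 44 genes passed without the replicate block and between 187 and 249 when a library was left out, against 317. Upper quartile factors split them 200 to 116, against 240 to 77. Of 553 list medians compared, 522 moved by less than their spread over batches and 31 by more. At 4 to 64 counts a library, Fosb and Arc were near the limit of what this depth resolves.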
